A study of Homo sapiens with 4 samples.

Results

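The transcripts of the human mitochondrial genome were followed in SK-N-BE(2) cells, an established neuroblastoma line, after knockdown of the RNA-binding protein IGF2BP3. Members were all rows of the deposited count table with a symbol starting with MT- that GENCODE release 29 places on the mitochondrial chromosome, 37 of 64252 rows. They comprised 13 mRNAs, 2 rRNAs and 22 tRNAs, with 28 genes on the plus strand of the reference and 9 on the minus strand, and no row was missing. Cells carried a short hairpin RNA against IGF2BP3 (shIGF2BP3, 2 libraries) or a control hairpin (shControl, 2 libraries), all in the same line and with no other treatment given in the labels. By its title, the series asks how IGF2BP3 keeps m6A-marked E2F2 mRNA stable in neuroblastoma. How many hairpins were used, whether the cells were pools or clones, and how long after transfection they were harvested is not stated in the labels.

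Human mitochondrial DNA is a small circle that codes for core subunits of respiratory complexes I, III, IV and V and for the rRNAs and tRNAs that translate them. Both strands are transcribed from promoters near the non-coding control region into long RNAs, and tRNAs stand between most of the other genes. Cleavage at the tRNA ends releases the mRNAs and rRNAs, so genes of the same strand start from a shared precursor and differ afterwards in cleavage, tailing and decay.

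Total counts were 27537200 and 26755695 for the shIGF2BP3 libraries and 27977019 and 31946756 for the shControl libraries. No library repeated another, since chi-square statistics per degree of freedom were 7.26 between the shIGF2BP3 replicates, 8.43 between the shControl replicates and 145.99 to 152.66 between libraries of different groups. IGF2BP3, the targeted gene, had 28.7 and 31.89 CPM (TMM-scaled counts divided by library size, abbreviated as CPM below) in shIGF2BP3 and 156.5 and 138.9 CPM in shControl, a log2 fold change of -2.28 (SE 0.09). All 8 markers of adrenergic neuroblastoma were detected, with MYCN at 4074 ± 160.0 CPM in shIGF2BP3 and 4742 ± 151.0 CPM in shControl (SD, n = 2 each). Of 6 leukocyte markers, CD3E and LYZ were at 0 in every library, and the list summed to 2.41 to 3.32 CPM in shIGF2BP3 and 1.95 to 2.97 CPM in shControl. All 6 fibroblast markers were detected, summing to 707.3 to 723.3 CPM in shIGF2BP3 and 546.3 to 577.9 CPM in shControl. Of these, 3 were higher and 1 was lower, and they are named after their values were seen. The collagen genes COL1A1 and COL3A1 stood at 1.77 and 1.62 on the log2 scale, the matrix proteoglycan gene DCN at 0.32 and LUM, another such gene, at -1.09. COL1A2 and PDGFRB did not pass. COL1A2, also picked after its values were seen, was low, at 1.52 and 1.02 CPM in shIGF2BP3 and 1.00 and 0.415 CPM in shControl. The part of cells of another type in the values below was not tested.

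Knockdown of IGF2BP3 went with a changed make-up of the mitochondrial RNA pool rather than with a shift of all its members in 1 direction. By edgeR's quasi-likelihood test, with p-values adjusted over all 19767 tested genes, 20 members were higher, 7 were lower and 10 did not pass the threshold of 0.05. All 37 had enough counts to be tested. Across all tested genes 25.9% were higher and 25.6% lower, and 51.5% passed in either direction, so a call by itself is common in this comparison. The members' median log2 fold change was 0.29, against 0.0094 for all tested genes. By class it was -0.03 for the 13 mRNAs, 0.41 for the 2 rRNAs and 0.60 for the 22 tRNAs. The groups did not overlap in 34 members, where 74.5% of all tested genes had groups that did not overlap. Members of the same strand share a precursor and are not independent of each other.

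**Figure D1:**
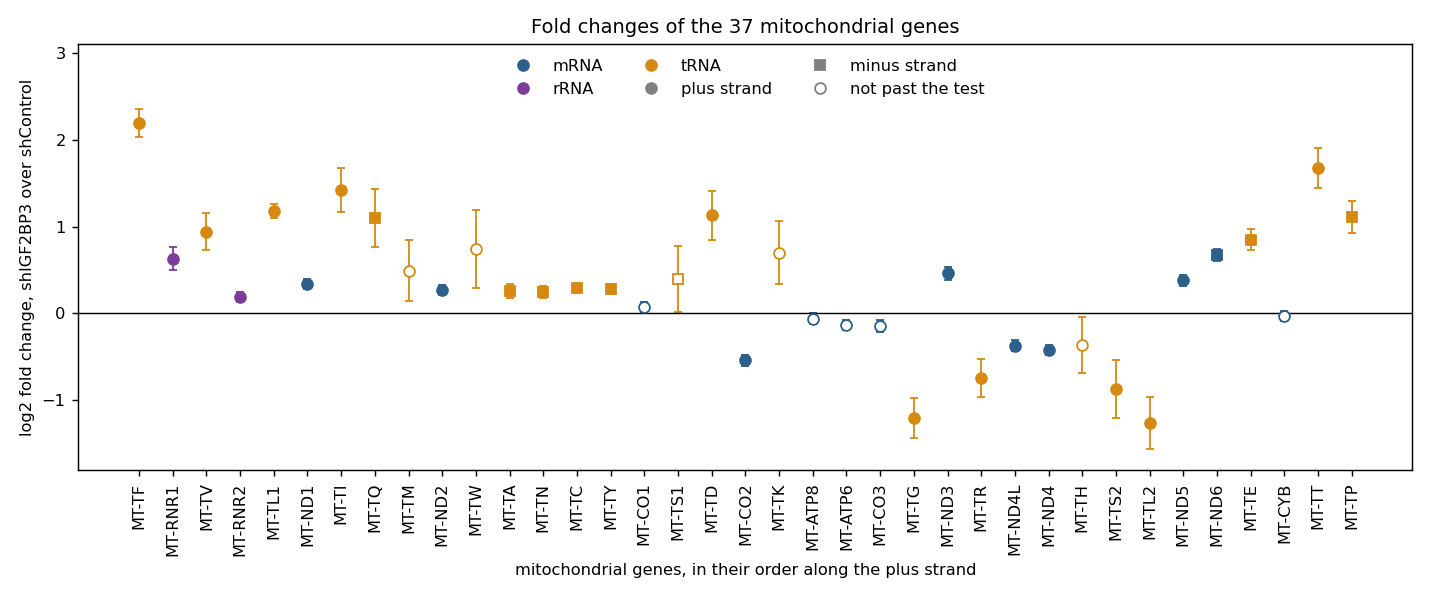
Log2 fold change (shIGF2BP3 over shControl) with its standard error for each mitochondrial gene, in the order of the genes along the plus strand, coloured by RNA class, with squares for the minus strand and open symbols for genes not past the test. The run from MT-TF to MT-ND2 and that from MT-TE to MT-TP without MT-CYB lie above 0, while MT-CO2 and the genes from MT-TG to MT-TL2 other than MT-ND3 lie below it, as do MT-ATP8, MT-ATP6, MT-CO3 and MT-CYB, which did not pass the test.

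As a share of all counts, the mitochondrial genome took 8.45% and 8.57% in shIGF2BP3 and 8.44% and 7.78% in shControl. The lowest shIGF2BP3 library stood only just above the highest shControl library. The mean difference of 0.396 percentage points had an exact two-sided permutation p = 0.3333, the smallest that 2 libraries against 2 allow, and it was 0.0631 points without shControl replicate 2. Wilson 95% intervals of these shares were at most 0.011 points to either side, which covers counting error only. In bulk RNA, a change in the number of cells carrying a transcript and a change in RNA per cell cannot be told apart.

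The rRNAs form the RNA core of the mitochondrial ribosome. MT-RNR1, the rRNA of its small subunit (ENSG00000211459, chrM:648-1601, plus strand, GRCh38), stood at 972.6 and 927.6 CPM in shIGF2BP3 and 691.0 and 534.4 CPM in shControl. Both shIGF2BP3 libraries were above both shControl libraries, which differed more between themselves than the shIGF2BP3 libraries did. MT-RNR1 was 1.55-fold higher in shIGF2BP3 (log2 0.63, SE 0.13, adjusted p = 0.00886), and the call ended without shIGF2BP3 replicate 1 (adjusted p = 0.0796) or replicate 2 (adjusted p = 0.0613). MT-RNR2, the rRNA of the large subunit (chrM:1671-3229), had 8626 and 8759 CPM in shIGF2BP3 and 8021 and 7226 CPM in shControl. MT-RNR2 was 1.14-fold higher in shIGF2BP3 (log2 0.19, SE 0.06, adjusted p = 0.0157). That call also ended without shIGF2BP3 replicate 1 (adjusted p = 0.0525), shIGF2BP3 replicate 2 (adjusted p = 0.091) or shControl replicate 2 (log2 0.10, adjusted p = 0.183).

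Per length, the balance of the rRNAs differed between the groups. The MT-RNR2 level per kilobase was 5.43 and 5.78 times that of MT-RNR1 in shIGF2BP3 and 7.10 and 8.27 times in shControl, with no overlap between the groups. Counts of the rRNAs together over those of the mRNAs were 0.1348 and 0.1334 in shIGF2BP3 and 0.1116 and 0.1097 in shControl. Mitochondrial rRNAs carry at most short tails, and the part of RNA selection in the rRNA values was not tested. Of 21 other RNAs listed as lacking long poly(A) tails, 19 had a row and 6 could be tested. Of the list, 1 was higher and 2 were lower, and 5 were at 0 in every library. They summed to 57.6 and 64.3 CPM in shIGF2BP3 and 47.8 and 96.3 CPM in shControl, ranges that overlap. All calls in that list were histone mRNAs, H2AC6 at 0.74 on the log2 scale, H2BC5 at -0.50 and H2BC4 at -2.48. Whether these transcripts lacked tails in these cells was not tested, so their calls do not measure RNA selection. The counts of H2BC4 were low, at 4 and 3 for shIGF2BP3 and 11 and 31 for shControl. The last 2 calls ended under DESeq2's Wald test (adjusted p = 0.0859 and 0.0787) and without single libraries.

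Complex I, the NADH dehydrogenase that passes electrons to ubiquinone, takes 7 of its core subunits from mitochondrial DNA. All 7 mRNAs passed the test, 5 higher and 2 lower, where 51.5% of all tested genes passed. Their median standard error was 0.06, against 0.16 for all tested genes, so smaller changes could pass. MT-ND1 (chrM:3307-4262) stood at 5438 and 5549 CPM in shIGF2BP3 and 4606 and 4047 CPM in shControl, and MT-ND2 (chrM:4470-5511) at 5229 and 5281 CPM in shIGF2BP3 and 4618 and 4112 CPM in shControl. Both shIGF2BP3 libraries were above both shControl libraries for each gene. The log2 fold change was 0.34 for MT-ND1 (SE 0.06, adjusted p = 0.000221) and 0.27 for MT-ND2 (SE 0.06, adjusted p = 0.00164) and 0.17 without shControl replicate 2 for MT-ND2. These subunits lie in the membrane arm of the complex, MT-ND1 at its junction with the peripheral arm. MT-ND3 (chrM:10059-10404), whose product has a flexible loop near that junction, stood at 857.3 and 870.3 CPM in shIGF2BP3 and 669.9 and 587.6 CPM in shControl. It was 1.37-fold higher in shIGF2BP3 (log2 0.46, SE 0.07, adjusted p = 1.5e-05).

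MT-ND4L and MT-ND4, which follow MT-ND3 along the genome, fell. They are carried on 1 mRNA with overlapping reading frames and code for membrane-arm subunits, MT-ND4 for a proton-pumping module. MT-ND4 (chrM:10760-12137) had 7752 and 8128 CPM in shIGF2BP3 and 11040 and 10170 CPM in shControl (log2 -0.42, SE 0.06, adjusted p = 1.49e-05). MT-ND4L (chrM:10470-10766) had 940.5 and 1008 CPM in shIGF2BP3 and 1276 and 1235 CPM in shControl (log2 -0.37, SE 0.06, adjusted p = 5.88e-05). The ratio of the MT-ND4L level to that of MT-ND4, per length, was 0.563 and 0.575 in shIGF2BP3 and 0.537 and 0.563 in shControl. The ratio of MT-ND3 to MT-ND4L per length was 0.782 and 0.742 in shIGF2BP3 and 0.451 and 0.409 in shControl.

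MT-ND5 (chrM:12337-14148), the gene of the most distal pumping subunit, lies after MT-ND4 on the plus strand and rose. It stood at 3128 and 3442 CPM in shIGF2BP3 and 2592 and 2459 CPM in shControl (log2 0.38, SE 0.06, adjusted p = 5.81e-05). Per length, its level over that of MT-ND4 was 0.307 and 0.322 in shIGF2BP3 and 0.179 and 0.184 in shControl. MT-ND6 (chrM:14149-14673), the only mRNA gene of the minus strand, had the largest change among the mRNAs. It stood at 1111 and 1203 CPM in shIGF2BP3 and 762.8 and 692.3 CPM in shControl, 1.59-fold higher in shIGF2BP3 (log2 0.67, SE 0.07, adjusted p = 1.3e-07). Its mRNA is known to lack a stable poly(A) tail, unlike most of the others. The strand setting is not known, so the MT-ND6 row may hold RNA of the opposite strand. MT-ND5 and MT-ND6 face each other on opposite strands, and the ratio of MT-ND6 to MT-ND5 per length was 1.23 and 1.21 in shIGF2BP3 and 1.02 and 0.972 in shControl.

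**Figure D2:**
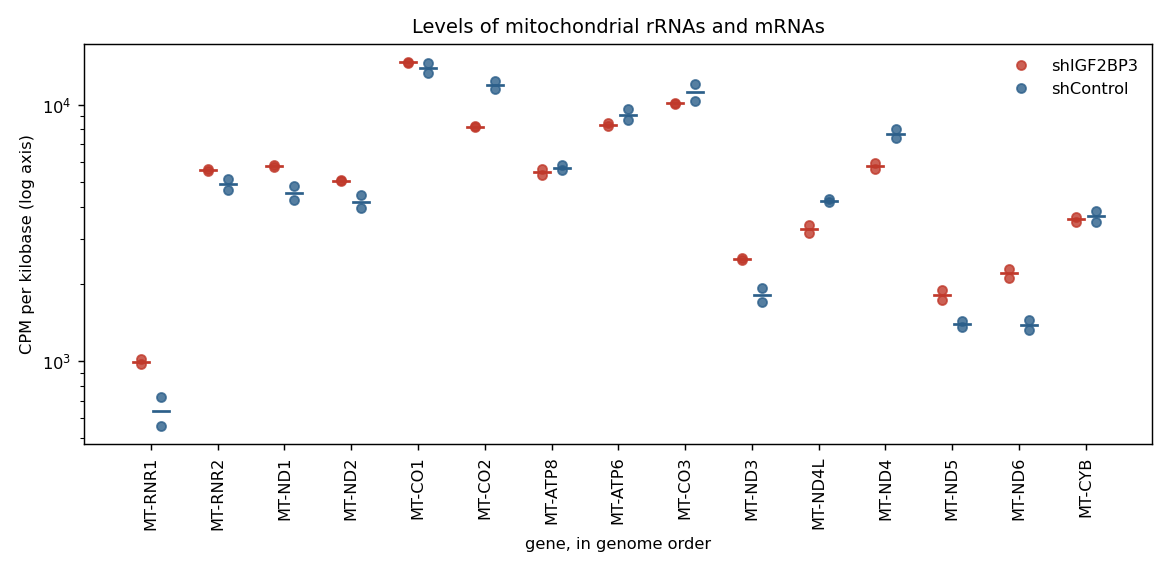
Level of each mitochondrial rRNA and mRNA in TMM-scaled CPM per kilobase of gene (log axis), with 1 point per library, a bar at the group mean and shIGF2BP3 to the left of shControl. MT-CO1 has the highest level in both groups and MT-RNR1 the lowest, and the groups of MT-ATP8 and MT-CYB overlap.

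Complex IV, cytochrome c oxidase, takes its catalytic core from MT-CO1, MT-CO2 and MT-CO3, and 1 of these mRNAs passed the test. MT-CO2 (chrM:7586-8269), whose product receives electrons from cytochrome c, stood at 5642 and 5598 CPM in shIGF2BP3 and 8472 and 7879 CPM in shControl. It fell by 0.54 on the log2 scale (SE 0.06, adjusted p = 4.89e-07), the largest fall among the mRNAs. MT-CO1 (chrM:5904-7445), the gene of the haem-bearing subunit, lies just before it on the same strand, with 1 tRNA gene of each strand in between. MT-CO1 stood at 22440 and 22570 CPM in shIGF2BP3 and 22410 and 20410 CPM in shControl (log2 0.07, SE 0.06, adjusted p = 0.345). It passed by library size alone (adjusted p = 0.0195) or without shControl replicate 1 (adjusted p = 0.0308), and stood at -0.01 without shControl replicate 2. The level of MT-CO2 over that of MT-CO1, per length, was 0.567 and 0.559 in shIGF2BP3 and 0.852 and 0.870 in shControl. MT-CO3 (chrM:9207-9990) had 7985 and 7891 CPM in shIGF2BP3 and 9453 and 8101 CPM in shControl (log2 -0.14, SE 0.07, adjusted p = 0.0866). Its fold change depended on the shControl libraries, at -0.27 without replicate 2 (adjusted p = 3.2e-05) and -0.03 without replicate 1 (adjusted p = 0.706).

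Complex V, the ATP synthase, takes MT-ATP6 of its proton channel and the small subunit MT-ATP8 from a shared mRNA, and neither row passed the test. MT-ATP6 (chrM:8527-9207) had 5611 and 5753 CPM in shIGF2BP3 and 6541 and 5921 CPM in shControl (log2 -0.13, SE 0.06, adjusted p = 0.08), and it did pass under DESeq2 (adjusted p = 0.038) and limma voom (adjusted p = 0.0297). Without shControl replicate 2 it stood at -0.22 (adjusted p = 0.00117), and without shControl replicate 1 at -0.06 (adjusted p = 0.442). MT-ATP8 (chrM:8366-8572) had 1098 and 1158 CPM in shIGF2BP3 and 1205 and 1148 CPM in shControl (log2 -0.06, SE 0.06), and its groups overlapped. MT-CYB (chrM:14747-15887), the cytochrome b of complex III, had 3991 and 4174 CPM in shIGF2BP3 and 4398 and 3965 CPM in shControl, with overlapping groups (log2 -0.03, SE 0.06, adjusted p = 0.677).

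The overlaps between genes of a shared mRNA are shown because a read that lies in them can be given to either row. MT-ND4L and MT-ND4 share 7 bases and MT-ATP8 and MT-ATP6 share 46, given in capitals in the sequences of GENCODE release 29 (GRCh38, plus strand), written in the direction of transcription.
MT-ND4L end (chrM:10727-10766): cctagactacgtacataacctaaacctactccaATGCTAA
MT-ND4 start (chrM:10760-10799): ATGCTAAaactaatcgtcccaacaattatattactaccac
MT-ATP8 end (chrM:8513-8572): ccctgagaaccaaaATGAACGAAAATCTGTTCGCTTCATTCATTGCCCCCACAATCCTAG
MT-ATP6 start (chrM:8527-8586): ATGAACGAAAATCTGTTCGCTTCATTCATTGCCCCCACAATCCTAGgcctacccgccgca
The capitals begin with the ATG start codon of the second frame in both pairs. With 46 of its 207 bases shared, MT-ATP8 is the row most open to such sharing, and its ratio to MT-ATP6 per length was 0.644 and 0.662 in shIGF2BP3 and 0.606 and 0.638 in shControl.

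Within the mRNA pool alone, the make-up differed by more than the spread between replicates for most genes. MT-CO1 made up 31.5% and 31.1% of mitochondrial mRNA counts in shIGF2BP3 and 28.7% and 28.9% in shControl. MT-ND4 made up 10.9% and 11.2% in shIGF2BP3 and 14.1% and 14.4% in shControl, and MT-CO2 made up 7.92% and 7.71% in shIGF2BP3 and 10.9% and 11.1% in shControl. The shares of MT-CO2, MT-ND4, MT-ND4L, MT-ATP6 and MT-CO3 were lower in both shIGF2BP3 libraries than in both shControl libraries, and those of MT-CO1, MT-ND1, MT-ND2, MT-ND3, MT-ND5 and MT-ND6 were higher. MT-CYB made up 5.60% and 5.75% in shIGF2BP3 and 5.64% and 5.61% in shControl. For MT-ATP8 the groups overlapped, at 1.54% and 1.59% in shIGF2BP3 and 1.54% and 1.62% in shControl. Shares of a single total depend on each other, so falls of some genes raise the shares of others. The level of MT-CO1 itself did not pass the test (log2 0.07, SE 0.06). When library sizes were set to the mitochondrial mRNA total, 26 of the 27 called members kept their call and direction. Complex I mRNA counts over those of complex IV were 0.678 and 0.707 in shIGF2BP3 and 0.634 and 0.640 in shControl.

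**Figure D3:**
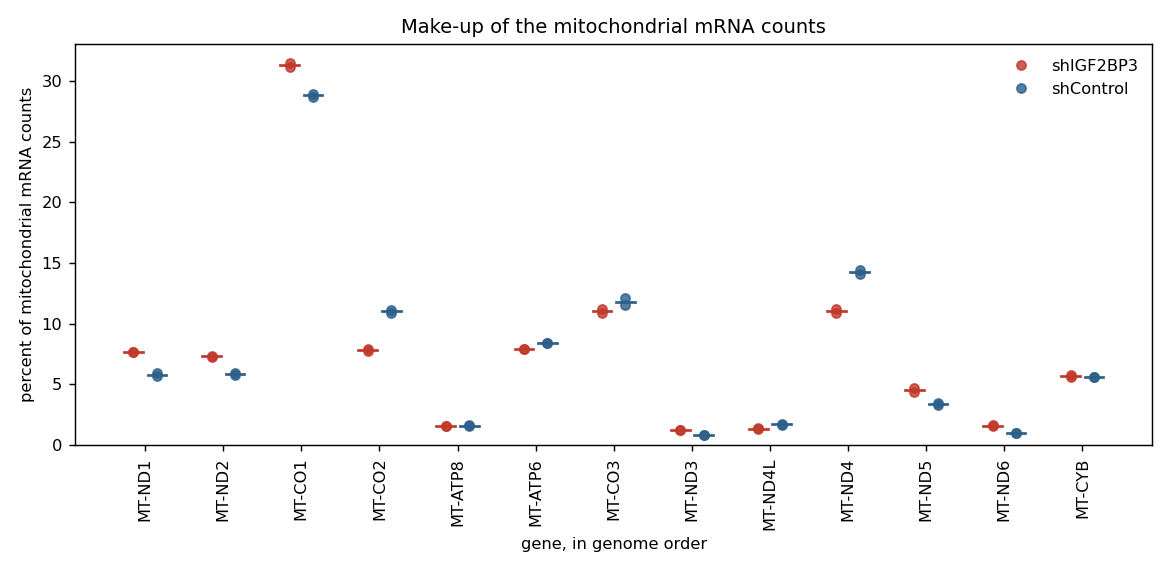
Share of each of the 13 mRNAs in the mitochondrial mRNA counts of a library, in percent, with 1 point per library, a bar at the group mean and shIGF2BP3 to the left of shControl. The shares of MT-ND4 and MT-CO2 are lower in both shIGF2BP3 libraries than in both shControl libraries, and that of MT-CO1 is higher.

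The tRNA rows carried the largest fold changes of the mitochondrial genome and its lowest counts. Of 22 tRNA rows 13 were higher, 4 were lower and 5 did not pass, with a median log2 fold change of 0.60. By share 59.1% were higher and 18.2% lower, against 25.9% and 25.6% of all tested genes. Counts ran from 21 to 7119 per library and standard errors from 0.06 to 0.45. The rows are 59 to 75 bases long, and how reads that reach into neighbouring genes were counted is not given. Mature tRNAs are short, and the labels do not say whether such fragments were kept, so mature tRNAs and longer precursors that hold them cannot be told apart in these rows. Sequences of the 4 rows with the highest fold changes and the 2 with the lowest are given in the direction of transcription (GENCODE release 29, GRCh38, plus strand), with the anticodon in capitals.
MT-TF (chrM:577-647): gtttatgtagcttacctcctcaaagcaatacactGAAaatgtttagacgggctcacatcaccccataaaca
MT-TT (chrM:15888-15953): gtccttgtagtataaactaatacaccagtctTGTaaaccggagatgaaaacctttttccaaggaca
MT-TI (chrM:4263-4331): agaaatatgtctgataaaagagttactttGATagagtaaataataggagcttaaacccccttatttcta
MT-TL1 (chrM:3230-3304): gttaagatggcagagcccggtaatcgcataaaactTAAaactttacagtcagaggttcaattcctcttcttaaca
MT-TG (chrM:9991-10058): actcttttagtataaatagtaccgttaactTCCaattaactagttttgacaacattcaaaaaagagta
MT-TL2 (chrM:12266-12336): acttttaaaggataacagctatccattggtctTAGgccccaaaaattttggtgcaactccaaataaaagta
MT-TL1 and MT-TL2 both carry leucine and differ in the anticodon, and MT-TL1 rose while MT-TL2 fell.

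MT-TF, the phenylalanine tRNA at the head of the plus strand transcript, stood at 24.9 and 23.4 CPM in shIGF2BP3 and 5.68 and 4.92 CPM in shControl. It was 4.57-fold higher in shIGF2BP3 (log2 2.19, SE 0.16, adjusted p = 3.75e-09), the largest fold change of any member. MT-TL1, the leucine tRNA between MT-RNR2 and MT-ND1, stood at 162.8 and 164.7 CPM in shIGF2BP3 and 76.0 and 68.5 CPM in shControl. It was 2.27-fold higher (log2 1.18, SE 0.08, adjusted p = 5.91e-10) and had 2047 or more counts in every library, so that its change rests on more reads than that of any other plus strand tRNA. The isoleucine tRNA MT-TI, which follows MT-ND1, had 8.19 and 6.63 CPM in shIGF2BP3 and 2.93 and 2.62 CPM in shControl (log2 1.42, SE 0.25). The threonine tRNA MT-TT, the last gene of the plus strand, had 8.90 and 8.64 CPM in shIGF2BP3 and 2.60 and 2.88 CPM in shControl (log2 1.67, SE 0.23).

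The 4 tRNA rows that fell lay between MT-CO3 and MT-ND5. The glycine tRNA MT-TG had 3.14 and 4.45 CPM in shIGF2BP3 and 8.21 and 9.17 CPM in shControl (log2 -1.20, SE 0.23, adjusted p = 0.000254). The leucine tRNA MT-TL2 had 1.80 and 1.82 CPM in shIGF2BP3 and 3.83 and 4.79 CPM in shControl (log2 -1.26, SE 0.30, adjusted p = 0.00193). MT-TR for arginine stood at -0.74 (SE 0.22) and MT-TS2 for serine at -0.87 (SE 0.33), while MT-TH for histidine at -0.36 (SE 0.32) did not pass. The call of MT-TR ended without shIGF2BP3 replicate 1 (adjusted p = 0.0774) or shControl replicate 2 (adjusted p = 0.134). MT-TS2, with 46 to 114 counts per library, lost its call under 8 of 14 alternatives, with adjusted p = 0.124 under DESeq2's Wald test and 0.103, 0.129 and 0.282 without shIGF2BP3 replicate 1, shIGF2BP3 replicate 2 and shControl replicate 2. These 5 tRNA genes flank MT-ND3, MT-ND4L and MT-ND4, of which the last 2 fell and MT-ND3 rose.

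In blocks along the genome, set after the values were seen, 5 of the 6 tRNAs from MT-TF to MT-TM were higher and 1 did not pass, and all 3 from MT-TE to MT-TP were higher. From MT-TW to MT-TY 4 of 5 were higher, from MT-TS1 to MT-TK 1 of 3 was higher, and from MT-TG to MT-TL2 4 of 5 were lower and 0 were higher. The remaining plus strand tRNAs past the test were MT-TV for valine at 0.94 (SE 0.21) and MT-TD for aspartate at 1.13 (SE 0.28). MT-TM, MT-TW and MT-TK, for methionine, tryptophan and lysine, stood at 0.49, 0.74 and 0.70 with standard errors of 0.35, 0.45 and 0.36 and did not pass.

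**Figure D4:**
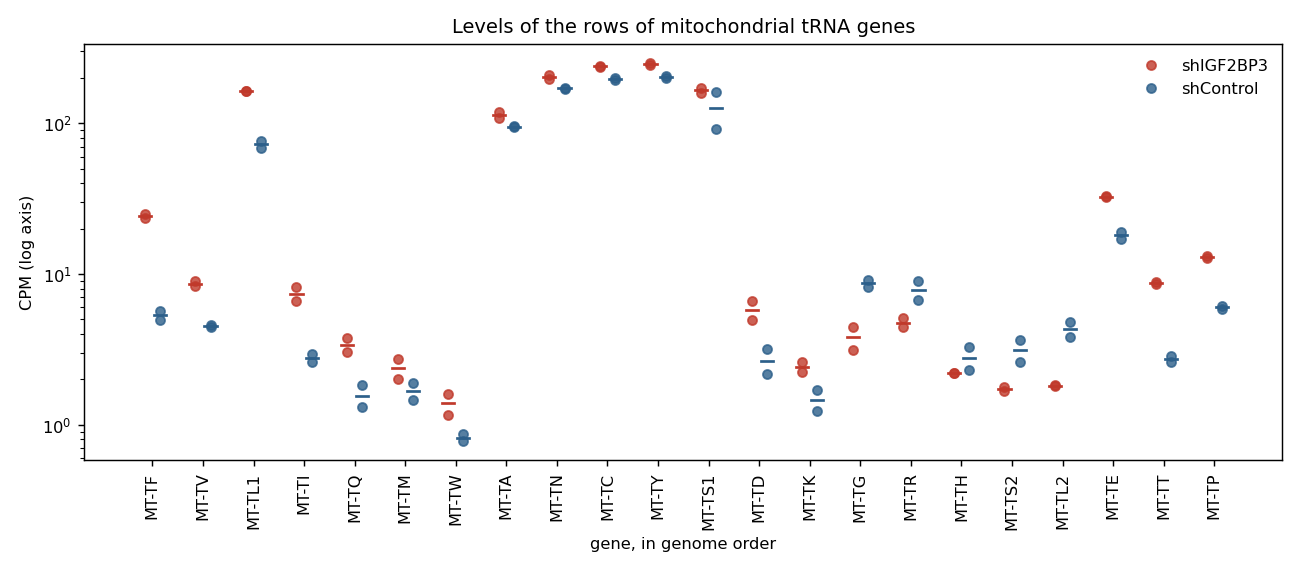
TMM-scaled CPM (log axis) of each mitochondrial tRNA row in each library, with a bar at the group mean and shIGF2BP3 to the left of shControl. MT-TL1 and the run from MT-TA to MT-TS1 stand at 68.5 CPM or above in every library, and MT-TG, MT-TR, MT-TH, MT-TS2 and MT-TL2 are lower in both shIGF2BP3 libraries.

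On the minus strand 8 of 9 members were higher, 0 were lower and 1 did not pass, with fold changes from 0.25 to 1.11 on the log2 scale. On the plus strand 12 of 28 were higher and 7 were lower. Among all tested genes 25.9% were higher and 25.6% lower. Counts of the minus strand rows over those of the plus strand rows were 0.0269 and 0.0270 in shIGF2BP3 and 0.0188 and 0.0188 in shControl. The ratio was 1.43 times as large in shIGF2BP3. The strand setting is not known, so rows of either strand may hold RNA of the opposite strand. The minus strand tRNAs for alanine, asparagine, cysteine and tyrosine (MT-TA, MT-TN, MT-TC and MT-TY) lie side by side before MT-CO1 and moved by like amounts, at 0.26, 0.25, 0.29 and 0.28 (SE 0.06 to 0.08). The calls of MT-TA and MT-TN ended without shIGF2BP3 replicate 1 (adjusted p = 0.11 and 0.0603). MT-TE for glutamate rose by 0.85 (SE 0.12), MT-TP for proline by 1.11 (SE 0.18) and MT-TQ for glutamine by 1.10 (SE 0.33). The call of MT-TQ ended without shIGF2BP3 replicate 1 (adjusted p = 0.08) or shControl replicate 1 (adjusted p = 0.0678).

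MT-TS1, the minus strand tRNA for serine, lies opposite the tail end of the MT-CO1 transcript. It had 171.7 and 158.7 CPM in shIGF2BP3 and 160.2 and 92.1 CPM in shControl (log2 0.40, SE 0.38, adjusted p = 0.494). The shControl libraries differed between themselves more than the groups did, and without shControl replicate 1 the log2 fold change was 0.84, past the test, against 0.03 (adjusted p = 0.839) without shControl replicate 2. It also passed with a replicate block (log2 0.44) and under limma voom (log2 0.46). No strand setting is given in the sources used here. For MT-ND6 and for the tRNAs of both strands, RNA of the gene and RNA of the opposite strand therefore cannot be told apart.

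Nuclear copies of mitochondrial sequence can take reads from the members. Of 403 rows named as such copies, 13 had an average count above 10, and 3 had one above 10000, all on chromosome 1. MTATP6P1 (chr1:633696-634376) held between 14.8% and 15.6% of the counts of MT-ATP6 in all 4 libraries, at a log2 fold change of -0.15 (SE 0.07, not past the test). MTND2P28 (chr1:629640-630683) held 11.8% and 12.2% of those of MT-ND2 in shIGF2BP3 and at least 12.2% in shControl, at 0.20 (SE 0.06, adjusted p = 0.0114). MTCO1P12 (chr1:631074-632616) held 1.69% and 1.75% of those of MT-CO1 in shIGF2BP3 and 1.65% and 1.74% in shControl, at 0.10 (SE 0.06). These near-identical rows are uncertain, since the counting rule could split their reads. MTND2P28 and MT-ND2 were both past the test and higher, while the other 2 copies and their mitochondrial genes did not pass. With the copies added to their genes, all 27 called members kept their call and direction.

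In pooled lists of nuclear genes that copy or express the mitochondrial genome, more genes fell than rose, but the lists differed. Of 97 genes in 5 lists, all tested, 44 were lower and 14 higher, against 25.6% lower and 25.9% higher among all tested genes. With library size alone as the scaling, which moved the median of all genes to 0.0897 on the log2 scale, 32 were lower and 20 higher. Among 15 genes of transcription and its regulators 6 fell and 2 rose (5 and 3 by library size alone), with a median of -0.20. TFAM, which packages mitochondrial DNA and opens its promoters, fell to 52.3 ± 1.42 CPM in shIGF2BP3, against 80.6 ± 4.37 CPM in shControl (log2 -0.62, SE 0.08). The mitochondrial RNA polymerase POLRMT stood at 69.6 ± 0.971 CPM in shIGF2BP3 and 99.6 ± 2.85 CPM in shControl (log2 -0.52, SE 0.08). NRF1, an activator of nuclear genes for respiration, fell by 0.72, and the coactivator PPARGC1B rose by 0.73 on the log2 scale.

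Among 18 genes of mitochondrial DNA replication and nucleotide supply 11 fell and 3 rose (8 and 4 by library size alone), with a median of -0.29. The exonuclease MGME1 stood at 27.2 ± 1.99 CPM in shIGF2BP3 and 69.7 ± 8.81 CPM in shControl (log2 -1.36, SE 0.11), the nuclease and helicase DNA2 at -1.0, the topoisomerase TOP3A at -0.87 and the membrane ATPase ATAD3B at 0.69. DNA2 and TOP3A also act in the nucleus. Of 21 genes of RNA cleavage, stability and decay 5 fell and 3 rose, with 3 and 6 by library size alone, and the median was -0.09. In the main fit 23.8% were lower and 14.3% higher, below the 25.6% and 25.9% of all tested genes. PRORP, the nuclease subunit of mitochondrial RNase P that cuts ahead of tRNAs, stood at 20.9 ± 0.906 CPM in shIGF2BP3 and 47.1 ± 3.16 CPM in shControl (log2 -1.17, SE 0.11, adjusted p = 6.34e-08). HSD17B10, another subunit of that enzyme, rose by 0.90 (SE 0.10). Its partner TRMT10C stood at -0.01 (SE 0.11) and ELAC2, which cuts behind tRNAs, fell by 0.30 (SE 0.10, adjusted p = 0.0176). These last 2 were chosen after their values were seen, to give the whole cleavage machinery. GRSF1, an RNA-binding protein of mitochondrial RNA granules, fell by 0.56, and FASTK, whose mitochondrial form acts on MT-ND6 mRNA in mouse and human cells, rose by 0.72 on the log2 scale.

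**Figure D5:**
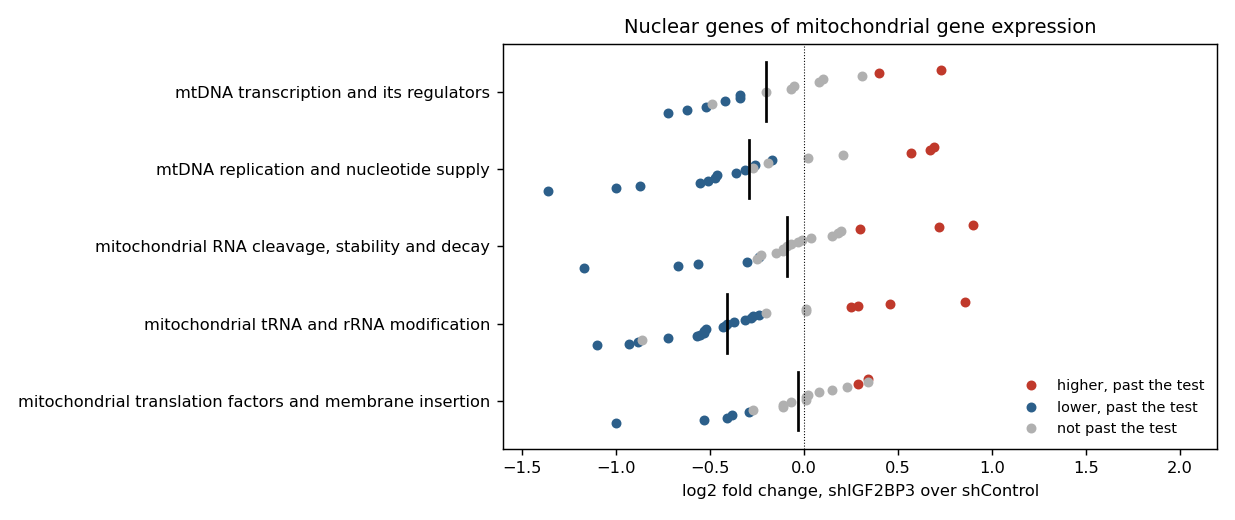
Log2 fold change (shIGF2BP3 over shControl) of the nuclear genes of mitochondrial gene expression, with 1 point per gene, a black bar at the median of each list and colours for the result of the test. The medians of the 5 lists lie between -0.41 and -0.03.

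Among 25 enzymes that modify tRNAs and rRNAs 17 fell and 4 rose, with a median of -0.41 (12 and 4 by library size alone). Without shIGF2BP3 replicate 2, 11 were lower and 2 higher. NSUN3, which modifies the methionine tRNA, fell by 1.10, the pseudouridine synthase TRUB2 by 0.93 and NSUN2, which also modifies cytosolic tRNAs, by 0.88. TRNT1, which adds the CCA end to tRNAs, rose by 0.86 on the log2 scale. Of 18 translation factors and insertion proteins 5 fell and 2 rose (4 and 3 by library size alone), with a median of -0.03. By share 27.8% were lower and 11.1% higher, against 25.6% and 25.9% of all tested genes. TACO1, which promotes translation of MT-CO1 mRNA, stood at 13.7 ± 0.413 CPM in shIGF2BP3 and 27.4 ± 1.51 CPM in shControl (0.50-fold, adjusted p = 3.75e-06). The recycling factor GFM2 fell by 0.53, the matrix protein C1QBP by 0.41 and the elongation factor TUFM by 0.38.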

How the data were processed

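The authors deposited raw counts per Ensembl gene for 4 libraries. The submitters' processing notes list HISAT2 2.2.0, StringTie and hg38 but no order or settings. Per the labels' protocols, TRIzol-extracted total RNA went into libraries made with a TruSeq RNA kit. How reads were assigned to genes, with which strand setting and by which annotation release, is not given in the sources used here. Since no label states that replicates were separate cultures, p-values reflect the spread between these libraries alone, and that spread may be technical. Of the identifiers, 56105 were named by a table of symbols and 486 others by GENCODE release 29.

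Genes were kept by filterByExpr (smallest count 10), scaled by TMM and tested with the robust quasi-likelihood test of edgeR 4.0.16 in R 4.3.3, with Benjamini-Hochberg adjustment over all tested genes and a threshold of 0.05. Fold changes are log2 with standard errors, and levels are TMM-scaled CPM, divided by gene length where genes are compared. Alternatives were other scalings, filters and tools (DESeq2 1.42.0, limma 3.58.1), a replicate block, nuclear copies added and each library left out. All 37 members are named. From each list up to 4 genes past the test with the smallest p and groups that do not overlap are named, and exceptions are stated. The procedure was also run on simulated counts with independent genes, a single dispersion and few changed genes. That setting differs from these data, so the run says nothing about the calls given here. Members and lists were chosen with earlier results of these data known.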

Additional observations from a re-analysis of the deposited data

How the results depend on the processing

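IGF2BP3 stayed lower and past the test under every alternative that gave a value, at -2.39 to -2.20 on the log2 scale without single libraries. All alternatives were planned. Mitochondrial members past the test numbered 26 to 28 under other scalings, filters, tools, the nuclear copies and the replicate block, and 20 to 28 without single libraries, where a lone library is assumed to vary like the other group. Of the 27 called members, 20 kept call and direction without shIGF2BP3 replicate 1 and 24 without shIGF2BP3 replicate 2. Signs turned only for members that did not pass. MT-CO1 ranged from -0.01 to 0.14 and MT-CYB from -0.13 to 0.04 without single libraries. MT-CYB stood at 0.05 and MT-ATP8 at 0.02 by library size alone, and MT-CYB at 0.01 when scaled to mitochondrial mRNA. The cause was not tested. Genes past the test numbered 8800 to 9442 without single libraries and 10509 with the replicate block, which gave 28 members by adding MT-TS1. The deviations from group means of libraries with the same number correlated at 0.021, and such libraries share only a number. Without single libraries, 5 to 8 genes of RNA cleavage, stability and decay, 13 to 16 of tRNA and rRNA modification and 1 to 2 of the RNAs without long poly(A) tails passed, the last also 1 under DESeq2. The mitochondrial share differed by 0.0631 to 0.728 percentage points without single libraries. Low counts limited several tRNA rows: MT-TW, with 21 to 44 counts per library, had a standard error of 0.45, and a missing call there does not show that a row was unchanged.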
